A study of Homo sapiens with 33 samples.

Results

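The transcriptional response to the synthetic glucocorticoid prednisolone was examined in TLE1 knockout Nalm6 cells. Members were taken by sample title: the 3 libraries of knockout cells given 5 µM prednisolone for 24 h and the 3 libraries of untreated knockout cells, 6 of the 33 libraries of the series. The whole series covers 11 groups of human acute lymphoblastic leukaemia (ALL) cell lines and asks, by its title, how glucocorticoid and canonical Wnt signalling oppose each other. Nalm6 is an established B-cell precursor ALL line. The knockout derivative was made by CRISPR/Cas9 editing of TLE1, and whether it is 1 clone or a pool is not given in the sources used here. Both groups carry the edit and were grown in RPMI-1640 medium with charcoal-stripped serum, a serum depleted of steroid hormones. The controls are listed as receiving nothing, so the comparison is with untreated and not with vehicle-treated cells. The labels conflict: their treatment note names prednisolone for parental Nalm6 and the Wnt agonist CHIR-99021 for the knockout line, whereas the sample titles and the series text give the knockout prednisolone and were followed. The series text describes 3 independent experiments, and libraries with the same replicate number did not pair.

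Glucocorticoids enter the cell and bind the glucocorticoid receptor, NR3C1, which is held by the HSP90 chaperone system until hormone binds. The receptor then moves to the nucleus and raises or lowers transcription, at palindromic DNA sites or through other factors. In lymphoid precursors the hormone is known to stop proliferation and to induce death through the BCL2 family, which makes it a mainstay of ALL treatment. TLE1 encodes a Groucho-family co-repressor that is recruited by LEF/TCF factors of the Wnt pathway, among others.

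The targeted gene comes first. The TLE1 transcript (ENSG00000196781.16_1) stood at 25.4, 24.0 and 24.0 CPM (counts scaled to a library total of 1000000) in untreated knockout cells. Under prednisolone it stood at 54.5, 69.0 and 64.1 CPM. The groups did not overlap, and the log2 fold change, prednisolone over untreated, was 1.31 ± 0.08 (SE; edgeR quasi-likelihood test, Benjamini-Hochberg adjusted p = 1.09e-06). The transcript was thus present in all 6 libraries. The position of the edit is not given in the sources used here, so a gene-level count does not check it, and protein was not analysed here.

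The libraries held 28777002 to 36912885 counts in genes, and 16555 genes passed the filter on low counts. The first principal component held 72.0% of the variance and separated the treated from the untreated libraries. The second (9.97%) lay within the groups, with untreated replicate 3 at -25.1 and untreated replicate 1 at 18.3. The 12 B-cell precursor markers were all tested, and their summed level was 4847 to 5015 CPM in untreated and 4764 to 4890 CPM in treated libraries. Of 10 T-cell markers, 8 were at 0 in all libraries and the sum reached at most 0.461 CPM. Among 10 myeloid markers, 4 were at 0 in all libraries. The sum over the 10 was 3.98 to 4.21 CPM untreated and 4.85 to 5.31 CPM treated. The 2 that were tested moved in opposite directions (edgeR adjusted p under 0.05 in both). Mean CD33 rose from 2.73 to 4.14 CPM and mean LYZ fell from 1.08 to 0.722 CPM. The part of the shift of the sum in the results was not tested. The sum of 7 erythroid markers, 6 of them at 0 in all libraries, reached at most 0.0335 CPM.

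Prednisolone changed the levels of 6911 genes, 41.7% of those tested (edgeR adjusted p under 0.05). Of these, 3283 rose (19.8% of genes tested) and 3628 fell (21.9%). Most changes were small: the median absolute log2 fold change of the called genes was 0.49, and 3509 of them (50.8%) changed by less than 0.5. Large changes were mostly rises. A change of 1 or more on the log2 scale was reached by 1152 called genes (6.96%): 775 rising genes (4.68%) and 377 falling genes (2.28%). At least 2 was reached by 252 and 30, and at least 3 by 124 and 4. The CPM ranges of the groups did not overlap for 8748 genes (52.8%). The median over all genes tested was -0.0032. These are bulk values, in which fewer cells making a transcript and less of it per cell cannot be told apart.

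**Figure D1:**
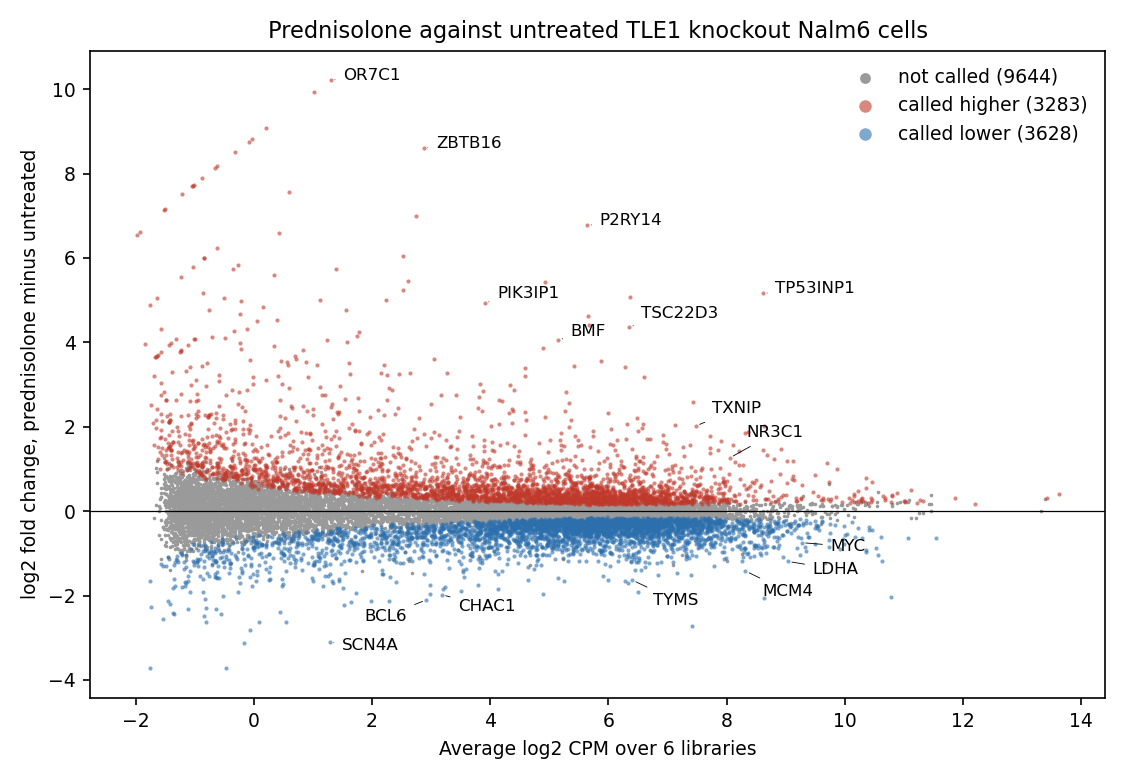
Log2 fold change under prednisolone (y axis) against average log2 CPM (x axis) for each gene tested, 3 treated against 3 untreated knockout libraries; called rises and falls are coloured and genes not called are grey. The largest changes lie above 0, where 124 called genes rose by at least 3 and 4 fell by as much.

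The 12 largest rises, among called genes with a symbol, an average log2 CPM of at least 1 and groups that did not overlap, mixed known glucocorticoid-induced genes with genes that were nearly silent before treatment. ZBTB16, a zinc-finger transcription factor, went from 1 count in each untreated library to 567, 446 and 398 counts. That is 3 against 1411 counts in all, a ratio of 449 (95% interval from counting error, 153 to 2178). P2RY14, the gene of a receptor for UDP-sugars, stood at 0.799, 0.948 and 0.899 CPM untreated and at 102, 103 and 94.9 CPM in treated cells, for a rise of 6.77 ± 0.10 on the log2 scale (edgeR adjusted p = 5.07e-11). TP53INP1, a stress-response and autophagy protein, went from 19.9, 21.4 and 21.6 to 768, 750.3 and 798 CPM (5.16 ± 0.08 on the same scale, edgeR adjusted p = 5.07e-11). In each of these genes the lowest treated library lay far above the highest untreated one. DPEP1, a membrane dipeptidase, rose from 4.63 ± 0.810 to 161 ± 7.67 CPM (SD, n = 3 each), with a log2 fold change of 5.09. PIK3IP1, an inhibitor of phosphoinositide 3-kinase, rose from 0.918 ± 0.0443 to 29.1 ± 0.880 CPM (4.94, and 3.27 in counts made without strand). KLF2, a quiescence-associated transcription factor, stood at 0.382, 0.275 and 0.161 CPM untreated and at 6.58, 10.2 and 10.6 CPM treated (5.01). The pseudogenes BNIP3P41 (6.98) and GOLGA6GP (5.74), TMEM100 (5.25) and the phosphatase subunit gene PPP2R2C (4.77) were also among the 12. Pseudogenes and olfactory receptor genes have close copies, and uniquely mapped counts can be split between such copies, so their values are uncertain.

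The remaining 2 of the 12 were the olfactory receptor genes OR7C1 and OR7A5. Neither had a single count in the untreated libraries. Under prednisolone OR7C1 stood at 5.34, 4.25 and 4.62 CPM and OR7A5 at 4.20, 3.50 and 3.95 CPM. Against a limit of 3 counts in the shallowest untreated library, OR7C1 was at least 45.4-fold higher and OR7A5 at least 37.2-fold higher. The RefSeq promoter table (GRCh38.p14) gives both genes the same start, so they share 1 upstream sequence, and it holds a match to the palindromic glucocorticoid receptor motif, searched as GNACA and TGTNC with any 3 bases between them. TXNIP, which encodes a thioredoxin-binding arrestin, also holds one. The 250 bases before each start are shown because these genes rose and hold the motif, which is in capitals. The first lies on chr19:14835186-14835435 and the second on chr1:145996580-145996829, both on the minus strand.

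OR7C1 and OR7A5: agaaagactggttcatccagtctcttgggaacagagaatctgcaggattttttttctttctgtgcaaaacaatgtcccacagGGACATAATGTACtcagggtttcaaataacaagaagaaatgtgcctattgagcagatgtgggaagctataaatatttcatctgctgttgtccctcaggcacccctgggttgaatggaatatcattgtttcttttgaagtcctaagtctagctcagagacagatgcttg

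TXNIP: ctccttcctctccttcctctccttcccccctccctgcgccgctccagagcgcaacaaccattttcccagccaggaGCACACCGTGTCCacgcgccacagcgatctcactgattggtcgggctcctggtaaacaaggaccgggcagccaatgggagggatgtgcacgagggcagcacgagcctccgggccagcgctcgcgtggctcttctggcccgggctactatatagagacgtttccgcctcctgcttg

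The motif begins 168 bases before the start in the olfactory receptor sequence and 175 bases before it in TXNIP. Both strands were searched over windows of 300 bases, 250 before and 50 after each start. The motif was held by 106 of 27305 promoters in the table (0.388%) and by 24 of the 10486 tested genes that have an entry (0.229%). Among genes called and higher by at least 1 it was held by 7 of 391 (1.79%), and among those higher by at least 2 by 5 of 119 (4.20%). None of 219 genes called and lower by at least 1 held it, and 9 of 5504 genes not called did. With the motif in 0.229% of tested genes, its absence from 219 says little. Of holders called with a change of less than 1, FKBP11 (-0.71) and EEF2K (-0.39) fell. HLA-DPA1 (0.68), MAP3K6 (0.65), FOXN3 (0.42), RALGAPA2 (0.41), MIRLET7IHG (0.36) and H1-3 (0.35) rose. The 7 holders higher by at least 1 were CHST7, EPHA4, GIMAP8, LINC00689, OR7A5, OR7C1 and TXNIP, and since OR7A5 and OR7C1 share a window they are 6 sequences. That shared window is also counted 2 times among the 5 holders higher by at least 2. The shorter motif AGAACA, found in 1 arm of many receptor sites, was held by 9.11% of tested genes, 14.1% of those higher by at least 1, 12.6% of those higher by at least 2 and 10.5% of those lower by at least 1, and by 14.9% of all promoters in the table. A match is a description of letters and not a binding site.

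**Figure D2:**
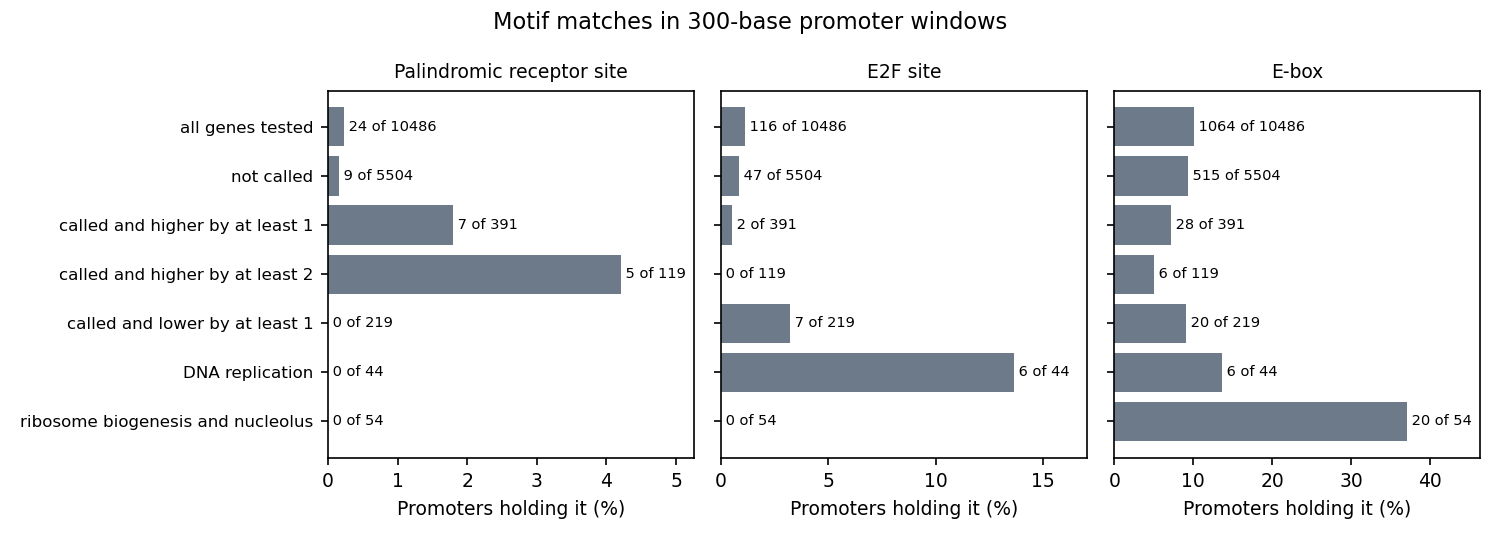
Percentage of promoters (300 bases each) that hold each motif, in sets of genes defined by the prednisolone response or by list. The palindromic glucocorticoid receptor motif is in 1.79% of promoters of genes higher by at least 1 and in 0.229% of those of all tested genes, the E2F motif is in 13.6% of DNA replication promoters, and the E-box is in 37.0% of ribosome biogenesis promoters.

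Among the 12 largest falls under the same criteria (an average log2 CPM of at least 1 included), the muscle sodium channel gene SCN4A fell furthest, with a value of -3.10 ± 0.21 on the log2 scale (edgeR adjusted p = 1.71e-06). Its values were 4.55, 4.83 and 3.40 CPM untreated and 0.406, 0.528 and 0.602 CPM treated. ID3, an inhibitor of basic helix-loop-helix factors, fell from 137, 139 and 145 to 36.2, 38.7 and 40.2 CPM (-1.91 ± 0.06, edgeR adjusted p = 1.10e-08). BCL6, a transcriptional repressor of B cells, fell from 12.6, 11.5 and 12.2 to 3.14, 2.77 and 2.74 CPM (-2.10). In all 3 genes the groups were far apart. The others were the orphan Toll-like receptor gene TLR10 (-2.15), CCM2L (-2.14), the peptide hormone gene APLN (-2.12), the glutathione-degrading enzyme gene CHAC1 (-1.98), UGT3A2 (-1.96), CHI3L2 (-1.96), TMEM52 (-1.93), the potassium channel gene KCNJ2 (-1.90) and PFKFB4 (-1.84), an enzyme that sets the level of a glycolysis activator.

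The list of 17 glucocorticoid-responsive genes rose almost throughout. Like the other lists, it was chosen with earlier results of these data known, so its count is a description and not a test. Of 16 tested, 15 rose, none fell and 1 was not called, beside 19.8% of all genes tested that rose. Their median log2 fold change was 1.52, against -0.0032 over all genes. TSC22D3, which encodes the anti-inflammatory protein GILZ, stood at 7.26, 7.03 and 7.87 CPM untreated and at 154, 154 and 163 CPM treated (4.37 ± 0.07, edgeR adjusted p = 6.25e-11). ISG20, a 3′ exonuclease, went from 4.69, 4.16 and 4.50 to 96.2, 98.8 and 98.7 CPM (4.42). TXNIP went from 72.8, 63.2 and 72.4 to 289, 299.9 and 279 CPM (2.02). None of these ranges overlapped. FKBP5, a co-chaperone that lowers the receptor's affinity for hormone, rose from 125, 140.1 and 109 to 251, 252 and 272 CPM (1.01). The antiproliferative gene BTG1 rose by 1.78, the cytokine signalling inhibitor gene SOCS1 by 2.63, and the transcription factor gene KLF9 by 1.09. SLA, an adaptor that dampens antigen receptor signalling, had 6 counts untreated and 133 treated, a ratio of 21.1 (95% interval from counting error, 9.46 to 58.6). Smaller rises were seen for the kinase gene SGK1 (0.99), the clock gene PER1 (0.81) and the mTOR inhibitor gene DDIT4 (0.80). DUSP1, a MAP kinase phosphatase often induced early by glucocorticoids, stood at 84.2 ± 3.78 CPM untreated and 82.7 ± 2.18 CPM treated (-0.07, edgeR adjusted p = 0.392).

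The glucocorticoid receptor transcript itself rose. NR3C1 stood at 143, 155 and 163 CPM untreated and at 393, 369 and 373 CPM treated, groups that did not overlap (1.26 ± 0.07, edgeR adjusted p = 5.66e-07). Here and in what follows, subsets within a list were formed by role after the values were seen. The counts of every list are to be read beside all genes tested, of which 19.8% rose and 21.9% fell. Over the 24 tested genes of the receptor, its chaperones and its coregulators, 4 rose, 11 fell and 9 were not called, with a median of -0.20. Most of the falls lay among the chaperones. In a subset of 12 HSP90 system genes, 8 fell and none rose. That subset did not include the co-chaperone gene FKBP5, which rose (1.01). HSP90AB1 went from 1864, 1881 and 1879 CPM to 1258, 1219 and 1275 CPM (-0.62), and STIP1, which links HSP90 to HSP70, fell by 0.64. HSP90AA1 fell by 0.94 with a wide spread among untreated libraries, which stood at 897, 1002 and 625 CPM. PTGES3, the p23 co-chaperone, fell by 0.42. NCOA1, a receptor coactivator, rose by 0.38.

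**Figure D3:**
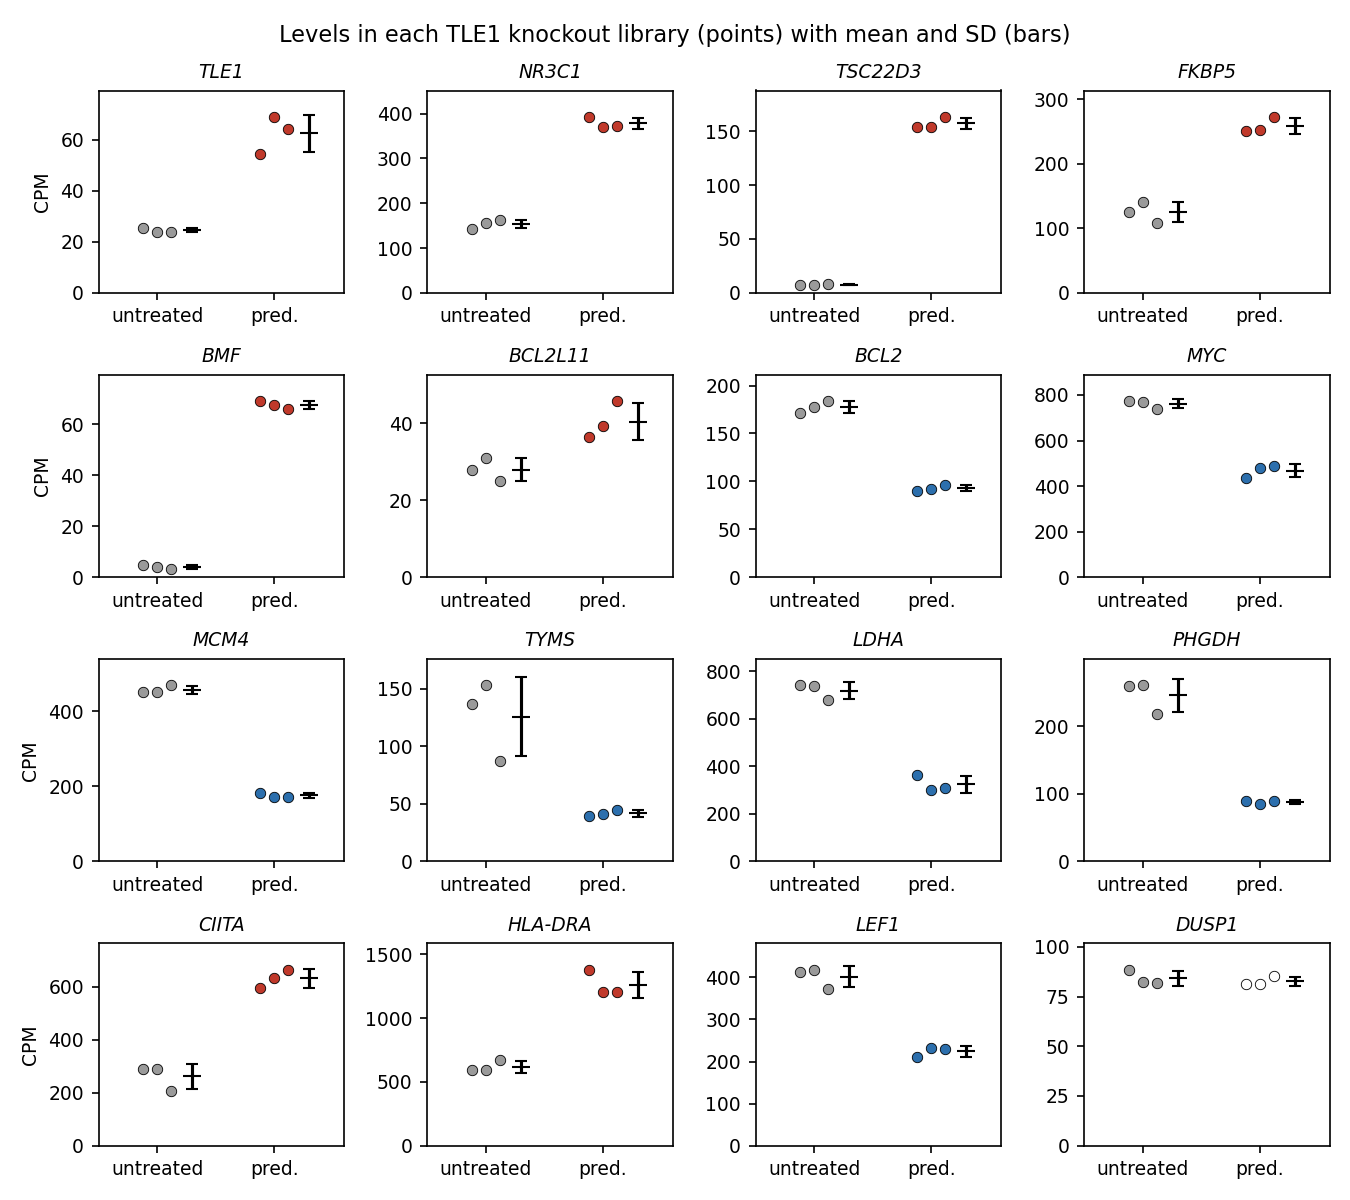
CPM (linear y axis from 0) in each of the 3 untreated and 3 prednisolone-treated knockout libraries for genes named in the text, 1 point per library, with the mean and SD as bars; treated points are red where the gene was called higher, blue where called lower and white where not called. TSC22D3, BMF and NR3C1 were higher in all 3 treated libraries than in any untreated one, BCL2 and TYMS were lower, and the points of DUSP1 overlap.

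The BCL2 family, which sets the threshold of mitochondrial apoptosis, moved in both directions. Of 14 members tested, 4 rose (28.6%, beside 19.8% of all genes tested), 5 fell (35.7%, beside 21.9%) and 5 were not called, with a median of 0.08. BMF, a BH3-only killer protein gene, rose most, from 4.80, 3.88 and 3.21 to 69.1, 67.5 and 66.0 CPM (4.06 ± 0.11, edgeR adjusted p = 2.60e-09). BCL2L11, which encodes the killer protein BIM, rose less, from 27.9, 30.9 and 25.0 to 36.3, 39.2 and 45.7 CPM (0.49 ± 0.10, edgeR adjusted p = 0.0023). Neither gene's groups overlapped. Of the survival members, BCL2 fell from 171, 178 and 184 to 89.9, 92.4 and 96.2 CPM (-0.98 ± 0.06, edgeR adjusted p = 1.06e-06), whereas BCL2L1 (0.45) and MCL1 (0.25) rose. The BH3-only genes HRK (-0.51) and BID (-0.49) fell. BBC3, which encodes PUMA, stood at 3.37 ± 0.367 CPM untreated and 4.16 ± 0.456 CPM treated (edgeR adjusted p = 0.153). The number of members that fell was 3 when replicate 3 of the prednisolone group was left out.

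Of 21 death receptor, caspase and caspase inhibitor genes, 6 rose, 1 fell and 14 were not called, with a median of 0.02. The called share, 33.3%, was below the 41.7% of all genes tested. The risers included inhibitors of death: BIRC3 (1.36) and BIRC2 (0.64), which block caspase activation, and CFLAR (0.84), which blocks caspase-8. The other risers were BIRC6 (0.22), also an inhibitor gene, the death receptor gene TNFRSF10B (0.24) and the caspase gene CASP10 (0.22). CFLAR stood at 31.4, 29.2 and 26.7 CPM untreated and at 51.4, 55.9 and 53.2 CPM treated.

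Genes of G1 progression fell. Of 26 G1/S cyclins, cyclin-dependent kinases, inhibitors and E2F factors tested, 17 fell (21.9% of all genes tested fell), 3 rose and 6 were not called, with a median of -0.57. The phosphatase gene CDC25A, which activates G1 kinases, fell from 136, 134 and 145 to 58.7, 56.6 and 55.6 CPM (-1.32 ± 0.06, edgeR adjusted p = 1.71e-07). CDK6 stood at 1294, 1649.6 and 1579 CPM untreated and at 965, 967 and 1054 CPM treated (-0.64). CDK4 (-0.78), CCND3 (-0.58), CCNE1 (-1.06), E2F1 (-0.78) and E2F2 (-0.70) also fell. The inhibitor gene CDKN1B, which encodes p27, rose from 54.6 ± 3.57 to 79.9 ± 1.61 CPM (0.51). CDKN1A, which encodes the related inhibitor p21, fell from 124, 123 and 125 to 55.9, 58.2 and 58.7 CPM (-1.15 ± 0.06, edgeR adjusted p = 1.56e-07).

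DNA replication had the highest share of falling members of the 31 lists. Of 51 genes, all tested, 47 fell, 1 rose and 3 were not called, and 20 fell by at least 1, where 2.28% of all genes did. The median was -0.89. All 6 subunits of the MCM2-7 helicase, which unwinds DNA at the fork, fell, by log2 fold changes from -1.0 to -1.42. MCM4 went from 451, 452 and 469 to 183, 173 and 172 CPM, and MCM6 from 340.3, 357 and 332 to 166, 162 and 160.1 CPM. GINS2, a subunit of the active helicase, fell from 89.5, 84.2 and 89.4 to 30.2, 30.9 and 31.6 CPM (-1.55 ± 0.06, edgeR adjusted p = 3.16e-08). In each of these genes every untreated library lay above every treated one. All 5 CDC45 and GINS genes fell, as did all 6 clamp and clamp loader genes, including PCNA (-1.18). All 6 genes of deoxynucleotide supply fell, among them the reductase subunit gene RRM2 (-1.29) and the thymidylate synthase gene TYMS (-1.63). TYMS varied among untreated libraries, at 137, 153 and 87.7 CPM, but remained above the treated ones, at 39.3, 41.0 and 45.0 CPM. POLA2, a subunit of the polymerase that primes synthesis, was the member that rose, from 25.0, 24.4 and 21.8 to 46.6, 45.7 and 43.8 CPM (0.89 ± 0.07, edgeR adjusted p = 4.81e-06). Of 6 genes of the complex that marks origins, 3 fell and 3 were not called.

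The promoter of MCM6 is shown because it holds the E2F motif TTTGGCGC, in capitals, at 2 places. It lies on chr2:135876444-135876693, minus strand (RefSeq, GRCh38.p14).

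MCM6: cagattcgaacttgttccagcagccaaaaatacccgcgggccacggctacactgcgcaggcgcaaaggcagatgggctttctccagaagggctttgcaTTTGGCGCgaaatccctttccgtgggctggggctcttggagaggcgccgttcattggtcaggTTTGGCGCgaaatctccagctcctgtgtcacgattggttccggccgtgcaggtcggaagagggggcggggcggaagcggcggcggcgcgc

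On either strand of the same 300-base windows, TTTGGCGC was held by 6 of 44 DNA replication genes with an entry (13.6%): CDC6, GINS1, MCM6, POLA1, POLE and POLE2. The share was 1.11% among all tested genes and 0.659% among all promoters of the table.

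Mitotic genes fell in large number and by small amounts. Of 49 genes of mitosis and the spindle, 39 fell, 1 rose and 9 were not called, with a median of -0.42, and none fell by at least 1. SPC24, a kinetochore subunit gene, fell by 0.87, and FOXM1, the transcription factor that drives mitotic genes, by 0.71. The proliferation marker MKI67 stood at 411, 454 and 257 CPM untreated and at 212, 195 and 236 CPM treated (-0.84 ± 0.17, edgeR adjusted p = 0.00232), with replicate 3 of the untreated group close to the treated range. CCNB1, the main mitotic cyclin, stood at 98.7 ± 9.0 and 97.0 ± 5.44 CPM (edgeR adjusted p = 0.553), and TOP2A, a topoisomerase that untangles chromosomes, at 574 ± 12.2 and 551 ± 49.9 CPM (adjusted p = 0.337), in overlapping groups. Without replicate 1 of the prednisolone group TOP2A was called (-0.19, edgeR adjusted p = 0.0437).

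**Figure D4:**
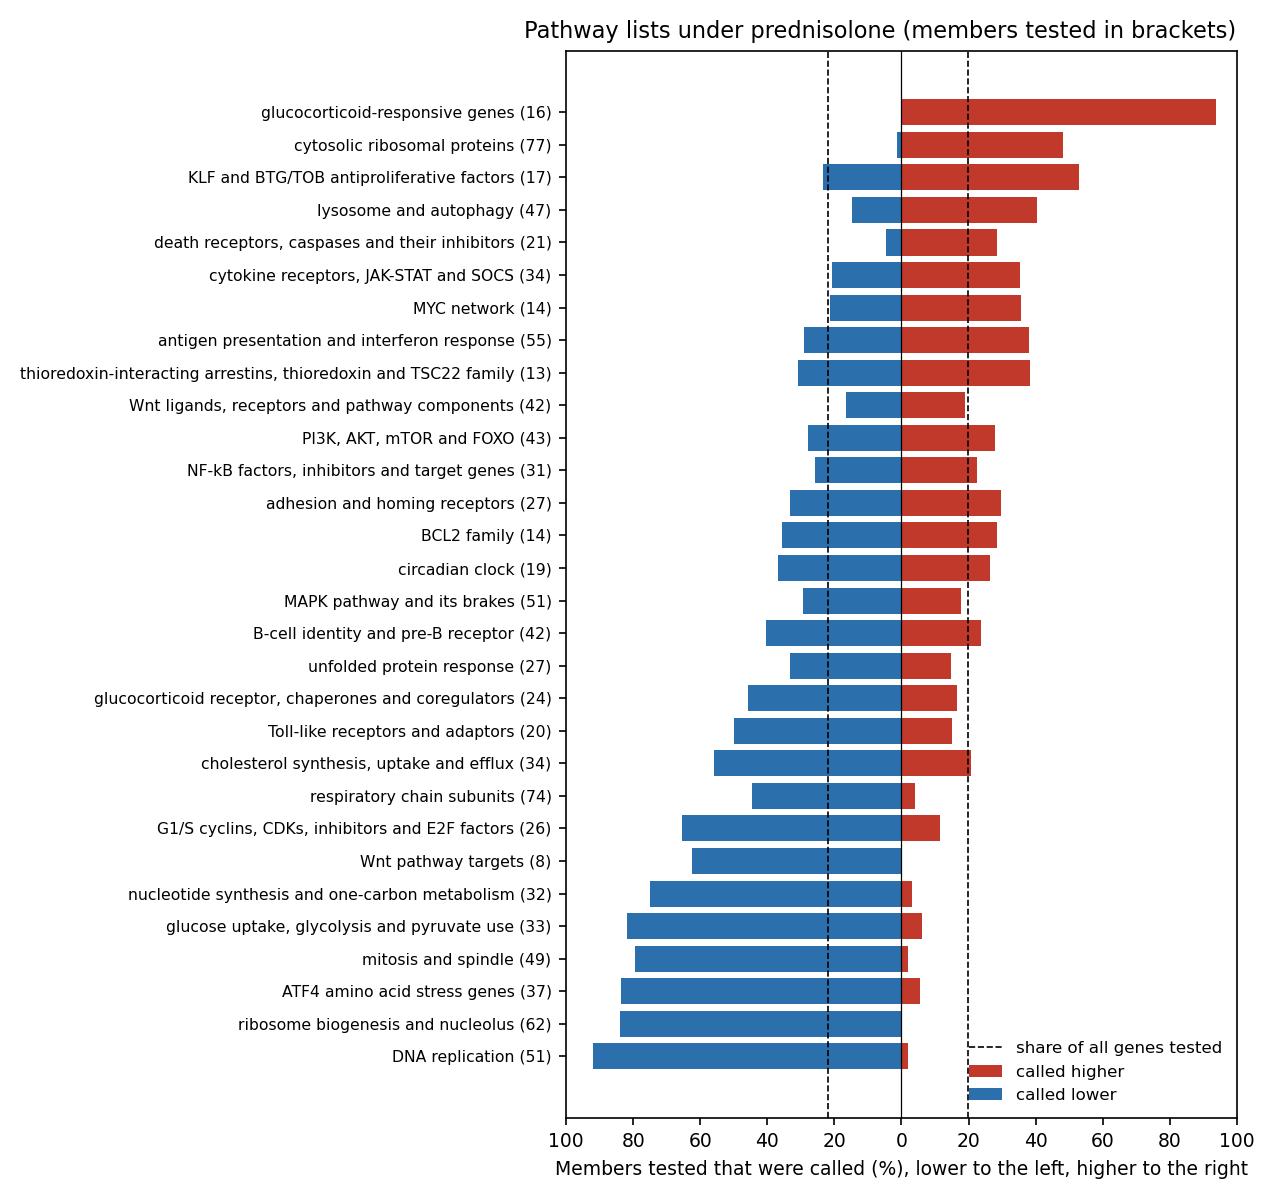
Percentage of tested members of pathway lists that rose or fell (edgeR adjusted p under 0.05) under prednisolone in knockout cells, beside the same over all genes tested. DNA replication and ribosome biogenesis had 47 of 51 and 52 of 62 members lower, and the glucocorticoid-responsive list had 15 of 16 members higher. The lists were chosen with earlier results of these data known.

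MYC, the growth-promoting transcription factor, fell from 773, 771 and 738 to 434, 478 and 487 CPM (-0.75 ± 0.06, edgeR adjusted p = 8.35e-06). Of 14 tested genes of its network, 5 rose (35.7%, beside 19.8% of all genes tested), 3 fell (21.4%, beside 21.9%) and 6 were not called. MXD4 (1.68) and MXD3 (0.61), which compete with MYC for its partner MAX, rose. Elsewhere in the network MXD1 rose (0.40), MNT fell (-0.38) and MXI1 was not called (-0.05). MXD4 went from 35.9, 31.4 and 32.5 to 99.2, 114 and 115 CPM, without overlap. Of 62 genes of ribosome biogenesis and the nucleolus, 52 fell, none rose and 10 were not called, with a median of -0.37. Their falls were small, as in the rRNA methyltransferase gene FBL (-0.70), BYSL (-0.85), the nucleolin gene NCL (-0.56) and NPM1 (-0.44). UTP18, a factor that processes ribosomal RNA, went from 82.8, 83.3 and 94.4 to 62.1, 64.9 and 66.2 CPM (-0.47). Its upstream sequence, on chr17:51260296-51260545, plus strand (RefSeq, GRCh38.p14), is shown as an example with the E-box CACGTG, the motif that MYC is known to bind, in capitals.

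UTP18: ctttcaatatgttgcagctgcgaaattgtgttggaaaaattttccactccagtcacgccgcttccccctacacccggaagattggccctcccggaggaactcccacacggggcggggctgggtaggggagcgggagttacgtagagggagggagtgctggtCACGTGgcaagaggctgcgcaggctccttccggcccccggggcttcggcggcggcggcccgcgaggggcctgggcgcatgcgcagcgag

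The E-box, which reads the same on both strands, was held by 20 of 54 ribosome biogenesis genes with an entry (37.0%), by 10.1% of all tested genes and by 7.43% of all promoters. By response, it was held by 9.13% of genes called and lower by at least 1 and by 7.16% of those higher by at least 1. In the DNA replication list it was held by 6 of 44. Many genes for the protein components of the ribosome rose by small amounts. Of 77 cytosolic ribosomal protein genes tested, 37 rose, 1 fell and 39 were not called, with a median of 0.20. RPS27 went from 959, 929 and 1057 to 1411, 1374 and 1422 CPM (0.47). The number of risers depended on single libraries: 10 when untreated replicate 2 was left out, 17 when untreated replicate 1 was, and 20 to 23 when 1 prednisolone replicate was. Both the replicate block and the unstranded column gave 19.

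Metabolic genes of the glucose route fell. Of 33 tested genes of glucose uptake, glycolysis and pyruvate use, 27 fell, 2 rose and 4 were not called, with a median of -0.61. Of the 17 enzyme genes from hexokinase to lactate dehydrogenase, 15 fell and none rose. LDHA, which turns pyruvate into lactate, went from 740.2, 737 and 679 to 365, 298 and 307 CPM (-1.19 ± 0.09, edgeR adjusted p = 3.10e-06). HK2, the first enzyme of the route, went from 349.9, 352 and 305 to 159, 155 and 159 CPM (-1.13), and ENO1 from 2037, 1888 and 2069 to 1074, 950.0 and 951 CPM (-1.05). Every untreated library was above every treated one in these genes. GAPDH, often used as a reference gene, fell by 0.64, the pyruvate kinase gene PKM by 0.89 and the glucose transporter gene SLC2A1 by 0.69. Of 74 respiratory chain subunits, 33 fell, 3 rose and 38 were not called, with a median of -0.12. Of the 36 subunits of complex I, 18 fell.

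Nucleotide synthesis and one-carbon genes fell in 24 of 32 cases, with 1 rise and a median of -0.53. PAICS, of purine synthesis, fell from 485, 507 and 498 to 269, 244 and 252 CPM (-1.0), and the glycine decarboxylase gene GLDC from 27.5, 29.9 and 33.7 to 13.2, 13.4 and 13.6 CPM (-1.22). Genes of the amino acid stress response, which the transcription factor ATF4 drives, fell in 31 of 37 cases, rose in 2 and were not called in 4, with a median of -0.71. Of these, 10 fell by at least 1. CHAC1 went from 15.5, 13.9 and 13.3 to 3.93, 3.43 and 3.75 CPM (-1.98 ± 0.11, edgeR adjusted p = 3.74e-07). PHGDH, the first enzyme of serine synthesis, went from 259, 260.1 and 217 to 89.3, 85.0 and 89.4 CPM (-1.52). All 5 genes of serine synthesis and mitochondrial folate use fell, as did all 5 aminoacyl-tRNA synthetase genes and 6 of 7 amino acid transporter genes. Among the transporters, SLC7A11 (-1.55) imports cystine and SLC7A5 (-1.08) imports large neutral amino acids, while SLC38A2 rose (0.28). ATF4 itself fell by 0.46, ATF5 by 1.51 and STC2 by 1.39. ASNS, a classical ATF4 target, stood at 3.07 ± 0.360 and 2.78 ± 0.787 CPM (edgeR adjusted p = 0.46). Of 27 unfolded protein response genes, 4 rose (14.8%, beside 19.8% of all genes tested) and 9 fell (33.3%, beside 21.9%). The other 14 were not called (median -0.06), and the risers numbered 1 to 7 as single libraries were left out.

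Cholesterol genes changed in both directions. Of 34 tested, 19 fell, 7 rose and 8 were not called, with a median of -0.38. Among 19 sterol synthesis enzymes, 14 fell and 2 rose. HMGCS1 (-0.96), an early enzyme, went from 310.2, 319 and 334 to 173, 165 and 173 CPM, and DHCR7 (-1.09), a late one, from 142, 135 and 132 to 64.6, 66.7 and 66.0 CPM. LSS, which closes the sterol ring, rose instead, from 271, 252 and 236 to 687, 746 and 731 CPM (1.47 ± 0.07, edgeR adjusted p = 1.31e-07). The regulator gene SREBF1 fell by 1.06. ABCA1, which exports cholesterol, rose from 36.9, 36.4 and 35.1 to 123, 122 and 119.9 CPM (1.71).

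**Figure D5:**
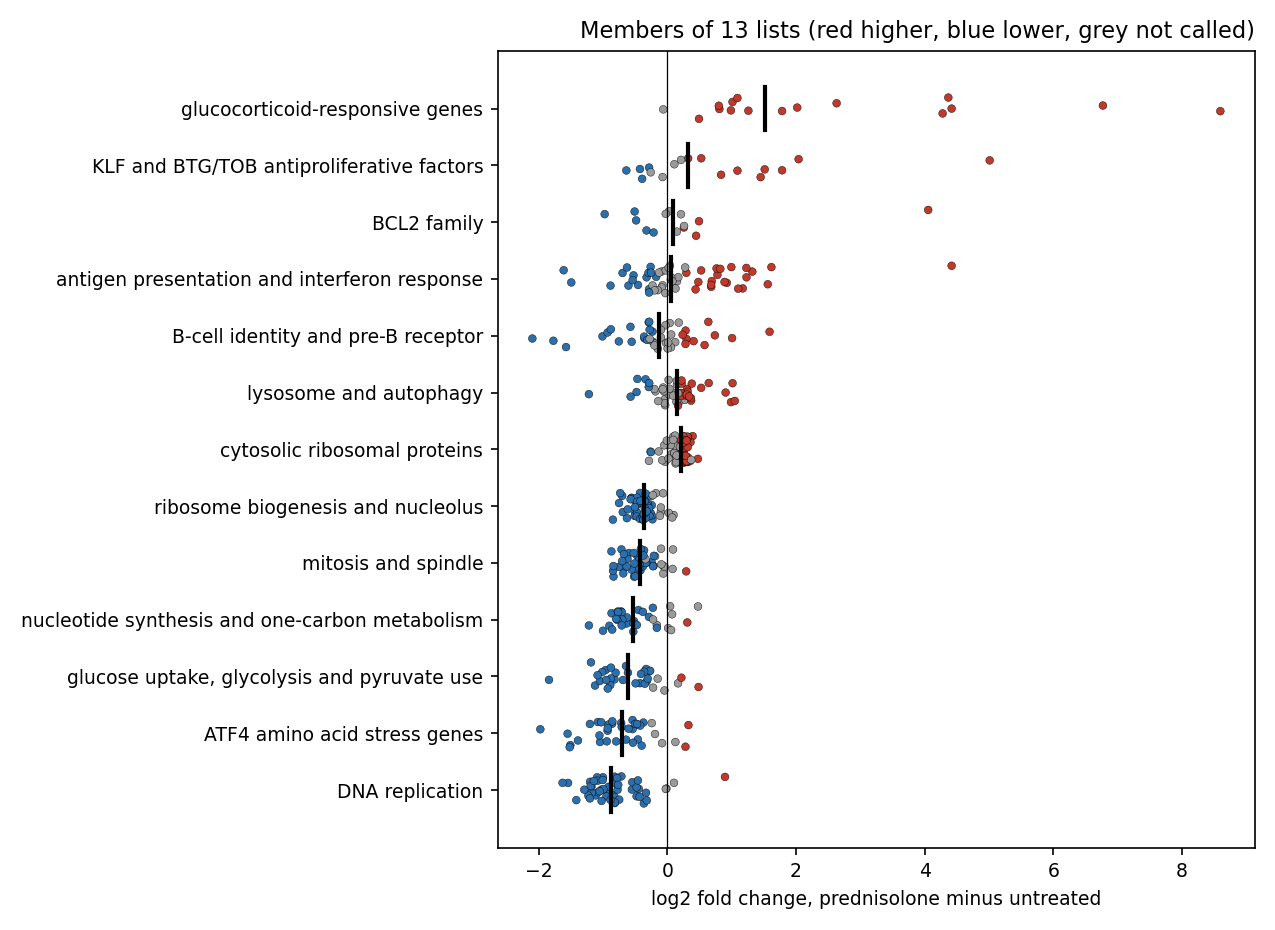
Log2 fold change of each tested member (1 point per gene) of selected lists, with the list median as a black bar; red members were called higher, blue lower and grey not called; the x axis is the log2 fold change under prednisolone and 0 means no change. DNA replication (median -0.89) and ATF4 genes (median -0.71) lie mostly below 0, glucocorticoid-responsive genes (median 1.52) above it. The lists were chosen with earlier results of these data known.

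Genes of the B-cell precursor programme changed in both directions. Of 42 tested, 10 rose (23.8%, near the 19.8% of all genes tested) and 17 fell (40.5%, beside 21.9%). The other 15 were not called, and the median was -0.13. The surface receptor gene CD22, an inhibitor of B-cell receptor signalling, fell from 54.9, 52.3 and 49.0 to 18.1, 16.8 and 18.8 CPM (-1.58 ± 0.07, edgeR adjusted p = 1.21e-07), while CD72, another inhibitory receptor gene, rose from 34.7, 27.8 and 33.1 to 103, 98.4 and 94.1 CPM (1.59 ± 0.09, edgeR adjusted p = 3.23e-07). In both genes the groups were fully separated. CD38 (-1.01), the transcription factor genes SPIB (-1.77) and PAX5 (-0.56), and the surrogate light chain genes VPREB1 (-0.76) and IGLL1 (-0.36) fell. The kinase gene BLK (1.01), the receptor chain gene CD79B (0.64) and the recombinase genes RAG1 (0.41) and RAG2 (0.74) rose. RAG1 stood at 925, 958 and 1013 CPM untreated and at 1318, 1306 and 1325 CPM treated. EBF1, a founding factor of the lineage, stood at 316 ± 11.1 and 333 ± 4.77 CPM (edgeR adjusted p = 0.673).

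Of 55 tested genes of antigen presentation and the interferon response, 21 rose (38.2%, beside 19.8% of all genes tested), 16 fell (29.1%, beside 21.9%) and 18 were not called, with a median of 0.05. Within this list, in a subset of 12 class II, invariant chain and regulator genes, 11 rose and none fell, with a median of 1.05. CIITA, the master regulator of class II genes, went from 289, 290.3 and 208 to 595, 634 and 665 CPM (1.23 ± 0.11, edgeR adjusted p = 1.38e-05). HLA-DRA went from 589.5, 589.8 and 668 to 1379, 1201 and 1202 CPM (0.99), and the peptide-loading gene HLA-DMB from 25.0, 20.7 and 23.3 to 71.2, 71.9 and 66.0 CPM (1.56). None of these groups overlapped. HLA-DQA1 (1.62) and CD74 (0.69), the invariant chain gene, rose too, and HLA-DOB, at under 1 CPM in every library, was not called. HLA genes have close paralogs, between which unique mapping can divide reads. Of 9 class I and peptide-loading genes, 3 rose and 6 were not called. Interferon-induced effectors were divided: of 23, 4 rose and 10 fell, among them OAS3 (-1.50) and IFI44 (-1.61), while MX1 (1.23) and ISG20 rose.

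Of 34 cytokine signalling genes, 12 rose (35.3%, beside 19.8% of all genes tested), 7 fell (20.6%, beside 21.9%) and 15 were not called. SOCS2, a feedback inhibitor of JAK-STAT signalling, went from 133, 137 and 142 to 490.3, 541 and 538 CPM (1.89 ± 0.07, edgeR adjusted p = 2.12e-08). The kinase gene JAK2 (0.60), STAT5A (0.61), STAT2 (0.89) and the receptor subunit gene IL6ST (0.84) rose. IL7R, a receptor for a growth cytokine of lymphoid precursors, fell from 321, 322 and 332 to 219, 194 and 199.9 CPM (-0.71). Genes of the phosphoinositide 3-kinase, mTOR and FOXO route were balanced, with 12 rises and 12 falls in 43 and a median of 0.04. Each share was 27.9%, beside 19.8% of all genes tested that rose and 21.9% that fell. Beside PIK3IP1, the amino acid sensor gene CASTOR1 (1.83) and SESN3 (0.86), both inhibitors of mTOR complex 1, rose. Other inhibitors of that complex on the list fell: DDIT4L by 0.98, SESN2 by 0.54 and NPRL2 by 0.37. The lymphoid kinase subunit gene PIK3CD (-0.57) and the translation inhibitor gene EIF4EBP1 (-1.19) fell. EIF4EBP1 went from 109, 114 and 121 to 42.6, 54.3 and 58.3 CPM.

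In the MAP kinase route, 9 of 51 genes rose (17.6%, near the 19.8% of all genes tested). The falls numbered 15 (29.4%, beside 21.9%), and 27 genes were not called. DUSP6, a phosphatase for ERK, went from 86.6, 84.8 and 91.3 to 186, 193 and 197 CPM (1.09 ± 0.06, edgeR adjusted p = 4.43e-07), and DUSP10, a phosphatase for JNK and p38, rose by 1.55. Of 31 NF-kB genes, 7 rose (22.6%), 8 fell (25.8%) and 16 were not called, shares near those of all genes tested (19.8% and 21.9%). NFKBIA, the inhibitor of NF-kB, went from 45.0, 42.4 and 51.2 to 99.3, 107 and 99.9 CPM (1.10), whereas TNFAIP3, another inhibitor, fell by 0.49. Genes of Toll-like receptors and their adaptors fell in 10 of 20 cases (50%, beside 21.9% of all genes tested). They rose in 3 (15%, beside 19.8%), which were LY96, IRAK4 and IRF7 and not receptors of the family. TLR10 stood at 4.97, 4.92 and 5.04 CPM untreated and at 1.22, 0.791 and 1.44 CPM treated, and TLR4 fell by 0.54.

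Of 16 Wnt target genes, 8 passed the filter on low counts, and of these 5 fell, none rose and 3 were not called, with a median of -0.41. LEF1, a Wnt-responsive gene that encodes a DNA-binding partner of TLE1, went from 413, 418 and 372 to 209.8, 232 and 231 CPM (-0.88 ± 0.07, edgeR adjusted p = 4.01e-06). MYC, the receptor-degrading ligase gene ZNRF3 (-0.59), BIRC5 (-0.56) and LGR5 (-0.25) also fell. MYC and BIRC5 are also genes of proliferation, and LEF1 is on the B-cell list too. AXIN2, a widely used readout of the pathway, stood at 4.38, 4.68 and 4.30 CPM untreated and at 3.49, 5.08 and 4.55 CPM treated, overlapping groups (edgeR adjusted p = 0.714). Among 42 tested ligands, receptors and components, 8 rose (19.0%), 7 fell (16.7%) and 27 were not called, shares at or below those of all genes tested (19.8% and 21.9%). As single genes, GSK3B, a kinase of the destruction complex, rose from 57.3, 61.7 and 52.1 to 91.5, 92.7 and 97.2 CPM (0.68), and CSNK1E by 0.63, while the receptor gene FZD5 fell by 0.82. Of the other Groucho genes, TLE2 (0.09) and TLE4 (0.07) were not called, and the rest are not described here. The falling components numbered 4 without replicate 2 of either group and 12 without replicate 3 of the untreated group.

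Of 17 tested KLF, BTG and TOB genes, 9 rose (52.9%, beside 19.8% of all genes tested) and 4 fell (23.5%, beside 21.9%). The median was 0.32, and BTG3 was among the falls (-0.64). BTG2 went from 57.3, 54.0 and 50.2 to 230.4, 225 and 227 CPM (2.04 ± 0.07, edgeR adjusted p = 8.70e-09), and KLF13 from 81.1, 80.6 and 74.1 to 222, 229.9 and 240.2 CPM (1.51). The falling members numbered 2 without replicate 2 of the untreated group and without replicate 2 or 3 of the prednisolone group.

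Surface and homing receptors moved both ways. Of 27 tested, 8 were higher (29.6%, beside 19.8% of all genes tested) and 9 lower (33.3%, beside 21.9%). The tetraspanin gene CD53 went from 150.3, 145 and 168 to 659, 637 and 634 CPM (2.02 ± 0.08, edgeR adjusted p = 2.97e-08). CD69, which retains lymphocytes in tissue by opposing the egress receptor S1PR1, went from 3.65, 3.39 and 3.92 to 26.4, 23.2 and 23.8 CPM (2.70), and S1PR1 itself fell from 5.87, 5.90 and 5.88 to 2.68, 2.51 and 2.84 CPM (-1.17). CXCR4, the marrow homing receptor gene, rose by 0.33 and the integrin gene ITGA4 fell by 0.37.

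Lysosome and autophagy genes rose in 19 of 47 cases (40.4%, beside 19.8% of all genes tested) and fell in 7 (14.9%, beside 21.9%). Their median was 0.15. The protease gene CTSB went from 67.4, 71.9 and 61.7 to 141, 141 and 146 CPM (1.05 ± 0.07, edgeR adjusted p = 1.06e-06), and the autophagy receptor gene OPTN from 31.8, 32.5 and 31.0 to 67.1, 63.1 and 64.2 CPM (0.99). BNIP3, a mitophagy receptor gene, fell from 148, 136 and 140.3 to 69.5, 59.9 and 57.4 CPM (-1.22). Of 19 clock genes, 5 rose (26.3%, beside 19.8% of all genes tested) and 7 fell (36.8%, beside 21.9%). PER1 rose, while PER2 (-0.30), PER3 (-0.69), the repressor gene BHLHE40 (-1.01) and TIMELESS (-0.86), which also serves the replication fork, fell.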

How the data were processed

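Bulk RNA sequencing libraries of TLE1 knockout Nalm6 cells were used, 3 given prednisolone and 3 untreated, grouped by sample title. The members and gene lists were chosen with earlier results of these data known. Per the labels' protocols, an RNeasy kit gave the RNA and Illumina protocols the libraries. The deposited values are raw counts of reads for 62446 gene rows, arranged as STAR arranges them. The submitters' processing notes name Bowtie2, DESeq2 and hg19 without a role, and the aligner version and annotation are not given in the sources used here. The files give 1 column counted without strand and 1 per strand. Column 4 held 13.9 to 14.6 times the total of column 3 and was used. The 4 rows of reads in no gene stayed out of library sizes and tests: 23.9% to 29.0% of a library fell outside genes, 5.64% to 7.80% were unmapped, 4.98% to 5.82% mapped to several places and 4.89% to 5.66% were ambiguous. Replicates differed by more than sampling noise (chi-square per degree of freedom 6.92 to 29.3), and none were merged.

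The counts were fitted with edgeR 4.0.16 in R 4.3.3 to the 6 libraries alone: filterByExpr, TMM, the quasi-likelihood F test without a replicate block, and Benjamini-Hochberg adjustment over all 16555 genes tested, called at an adjusted p under 0.05. The fit was tested on simulated data. Log2 fold changes carry a standard error derived from the F statistic. CPM values were computed on library totals. Symbols matched 40641 gene IDs from the supplied name table and gene types 56643 from GENCODE v29. Of 1191 genes written in 31 pathway and 4 marker lists, 1187 matched, and 1033 distinct pathway genes were tested. A list is described by its counts and its median over tested members, beside all genes tested. A group at 0 gives a lower bound against 3 counts in the shallowest library, and ratios of summed counts carry an exact 95% interval. Without molecular identifiers, both cover only the error of counting. Genes named are TLE1, list members, the 12 largest rises and the 12 largest falls under the criteria given there, and other genes named were chosen after their values were seen. Some items are not reported here. Alternatives were DESeq2 1.42.0, RLE size factors, a minimum of 10 counts per library, no minimum, robust moderation, a replicate block, the unstranded column 2 and each library left out.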

Additional observations from a re-analysis of the deposited data

How the results depend on the processing

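The number of called genes, 6911, ran from 5905 to 7555 over the alternatives that kept all 6 libraries: 6903 with RLE size factors, 6425 with DESeq2, 7555 without a filter, 6527 with at least 10 counts in every library, 6950 with robust moderation and 6898 in the unstranded column. With the replicate number as a block it was 5905, of which 5855 were also called without it. Deviations from the group means over 12147 genes gave the same-numbered libraries a Pearson r of -0.28, -0.36 and -0.35, and each library correlated best with one of another number (r of 0.36, 0.44 and 0.29), so the numbers were not taken to pair the samples. Leaving out single libraries gave 5464 to 7321 calls. Genes called and changed by 1 or more on the log2 scale numbered 1152, and 732 with at least 10 counts in every library, where 451 of the called genes were not tested. The other alternatives gave 1068 to 1590. No alternative shifted the median of all genes by over 0.1, and between 77.1% and 98.9% of the calls were kept. In the unstranded column 7 genes were called in the opposite direction. Of 187 genes named, AXIN2 and HLA-DOB, neither of them called, changed sign when single libraries were left out (AXIN2 from -0.19 to 0.058, HLA-DOB from -0.23 to 0.23). With 3 libraries per group, all p-values rest on the spread between these libraries. Uniquely mapped counts are uncertain for close paralogs, and the lists were chosen with results known.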

Other observations

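Immunoglobulin variable segments lie outside the lists and were chosen after their values were seen. Of 15 tested segments annotated as functional genes, 9 rose and 2 fell, and of 7 annotated as pseudogenes 5 rose and none fell, beside 19.8% of all genes tested that rose. IGHV3-74 stood at 0.625, 0.734 and 0.835 CPM untreated and at 8.91, 8.38 and 7.73 CPM in treated cells (3.46 ± 0.15 on the log2 scale, edgeR adjusted p = 1.01e-07). IGHV3-73 (4.52) and the pseudogene IGHV5-78 (1.56) also rose. IGHV5-78 went from 19.1, 17.2 and 18.5 to 56.6, 53.7 and 56.1 CPM. IGHV3-66 (-1.13) and the lambda segment IGLV2-8 (-1.25) fell. The heavy chain constant gene IGHM stood at 1683 CPM untreated and 1882 CPM treated (edgeR adjusted p = 0.107). Variable segments are close copies of one another, so their uniquely mapped counts are uncertain.

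By annotated type, the called genes fell on both sides of 0. Of 11681 protein-coding genes tested, 2407 rose and 3290 fell. Of 961 lincRNA genes, 220 rose and 77 fell, and of 1116 antisense genes 228 rose and 92 fell. Over all genes tested, 19.8% rose and 21.9% fell. The rising share of each of these types lay near that of all genes. The falling share was lower than over all genes for lincRNA and antisense genes and higher for protein-coding genes. These differences between types were not tested, and antisense counts depend on the strand-specific column.

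Among called genes, 17 had no count in any untreated library. Beside OR7C1 and OR7A5 they included LOXL4, a matrix cross-linking enzyme gene, at 1.73, 2.24 and 1.44 CPM under prednisolone and at least 17.3-fold higher (not called in the unstranded column, 0.54, edgeR adjusted p = 0.0535), and HEYL, a Notch-responsive repressor gene, at 1.14, 1.19 and 1.14 CPM and at least 11.1-fold higher. KDR, a vascular growth factor receptor gene, had 1 count over the untreated libraries and 277 over the treated ones, a ratio of 264 (95% interval from counting error, 47.0 to 10471).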
